A study of Homo sapiens with 8 samples.

Results

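The licensing genes examined here are 9 in number: *ORC1* to *ORC6*, which encode the subunits of the origin recognition complex, *CDC6* and *CDT1*, which encode its partners in loading the replicative helicase, and *GMNN*, which encodes the CDT1 inhibitor geminin. They were taken by name, and their windows were the gene body in GENCODE release 44 on hg38 plus 10 kb on either side. After joining overlapping origins of the 4 cell lines, the windows held 8 of 56863 origins. The lists of the single lines had 6 of 30197 origins there in WT, 4 of 33535 for *ORC1Δ*, 4 of 37813 for *ORC2Δ*, and 6 of 41332 for *ORC5Δ* cells.

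Origins were mapped by SNS-seq, in which short nascent DNA is kept by size selection and digestion with lambda exonuclease and then sequenced. All 4 lines are HCT116 p53−/− cells, an epithelial colon cancer line without p53, grown in McCoy's 5A medium with no treatment named. WT is the unedited control, and *ORC1Δ*, *ORC2Δ*, and *ORC5Δ* were each made from it with CRISPR–Cas9. The 8 samples are 2 biological replicates of each line. The sources used here do not state how many clones stand behind a line, so a knockout and the history of its clone cannot be told apart. A trace of truncated ORC2 protein in *ORC2Δ* cells was reported by another group and was not detected by the study. The deposited lists hold the peaks found in both replicates, and the 3 deposited tables hold read counts for WT and 1 knockout line with the replicates merged, 6416892 to 6878409 WT reads and 6691088 to 8523971 knockout reads per table. No spread between replicates can therefore be given, no test between lines was possible, and the intervals of folds are 95% exact Clopper-Pearson intervals, which cover counting error alone. The 3 tables share the WT samples, so their values are set side by side and not counted as independent.

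In each G1 phase, ORC bound to DNA recruits CDC6, and CDT1 brings the MCM2–7 helicase, so that rings of MCM are loaded around the DNA as licensed but inactive origins. Kinases of S phase then switch the loaded helicases on, while geminin and the destruction of CDT1 keep origins from being licensed again. The genes are transcribed in proliferating cells, and several of them are known targets of the E2F transcription factors.

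Origins lay in the windows of 4 licensing genes, *ORC1*, *ORC5*, *CDC6*, and *CDT1*, with 2 origins each. *ORC2*, *ORC3*, *ORC4*, *ORC6*, and *GMNN* had none on any list. On the WT list, 3 of the 9 genes had an origin in the window, whereas 47.6% of 20007 protein-coding genes did. The corresponding numbers were 2 genes in *ORC1Δ* against 49.8% of all genes, 2 in *ORC2Δ* against 53.0%, and 3 in *ORC5Δ* cells against 55.6%. Over the 4 lists together, 4 of the 9 genes had an origin where 65.2% of all genes did.

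**Figure D1:**
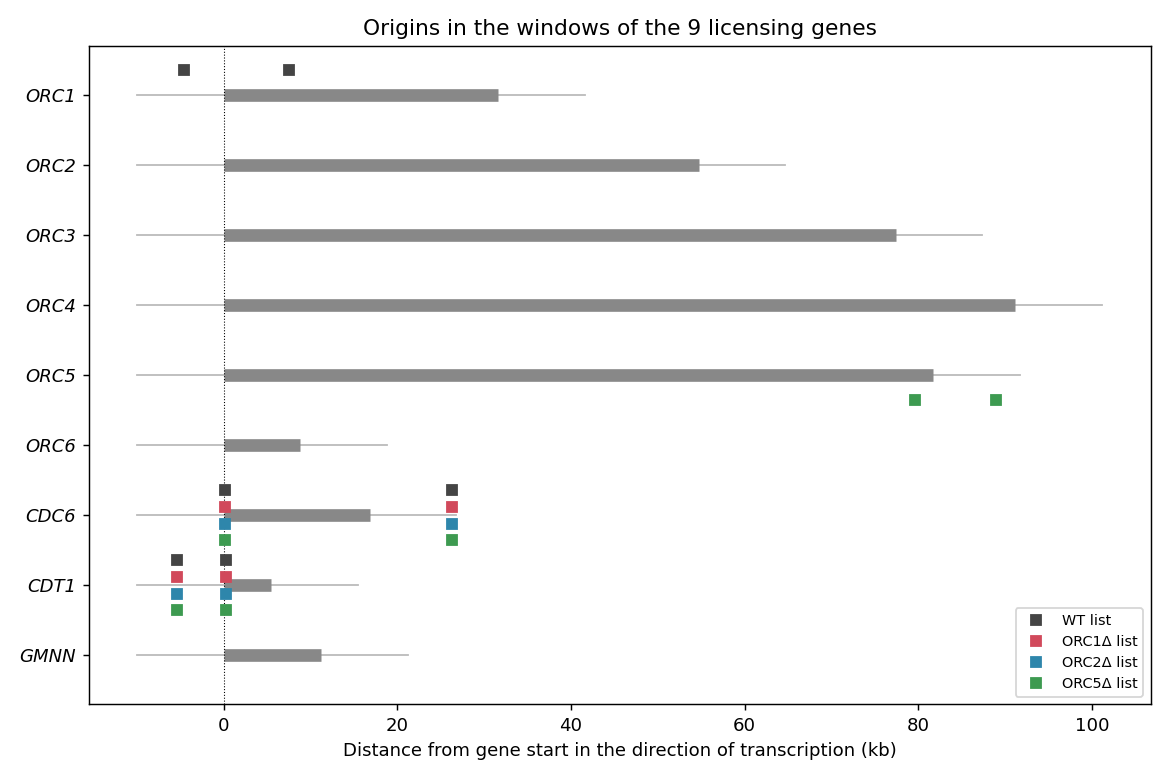
Positions of the origins in the windows of the 9 licensing genes. The x axis gives the distance in kb from the gene start in the direction of transcription, thick bars are gene bodies, thin lines the windows, and squares the midpoints of origins on the list of each line. *CDC6* and *CDT1* hold the same 2 origins on all 4 lists, the *ORC1* origins are on the WT list alone, the *ORC5* origins are on the *ORC5Δ* list alone, and the other 5 windows are empty.

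An origin within 1 kb of the gene start was found for *CDC6* and *CDT1* on every list and for no other licensing gene. That is 2 of 9 genes, beside 17.2% of all protein-coding genes in WT, 15.1% for *ORC1Δ*, 19.4% for *ORC2Δ*, and 20.2% for *ORC5Δ* cells. The 4 licensing genes of 50 to 100 kb, *ORC2* to *ORC5*, had no WT origin in the window, where 45.6% of 3121 genes of that length had one. Of the 4 genes under 20 kb, 2 had one, beside 45.8% of genes of that length. The 1 gene of 20 to 50 kb, *ORC1*, had one, beside 46.7%. The windows held 10.7 WT origins per Mb, against 14.2 per Mb in the windows of all protein-coding genes and 10.3 per Mb in the genome outside assembly gaps. In the *ORC1Δ* and *ORC2Δ* lists the density in the windows was 7.16 per Mb, against 15.3 and 17.3 per Mb for all protein-coding windows, and in the *ORC5Δ* list it was 10.7 against 19.0 per Mb. With 9 genes, these shares are descriptions of small counts.

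By the 1.5-fold rule of the study's methods (a log2 fold beyond 0.585 in RPM, reads per 1000000 counted reads of the line), no origin in the windows was up in any knockout line. Scaling to the counted reads was chosen here, as the study does not state its total. Its results give more origins up and down in common to all 3 knockout lines than the 966 and 316 called here in *ORC5Δ* cells. The calls given here are therefore not those of the study. Among all origins of the tables, 7.04% were up for *ORC1Δ*, 4.66% for *ORC2Δ*, and 2.08% for *ORC5Δ* cells. Of the 6 window origins in the *ORC1Δ* table, 0 were down, beside 3.95% of all origins. For *ORC2Δ*, 1 of the 6 was down, beside 3.58% of all, and for *ORC5Δ*, 1 of 8 was down, beside 0.68% of all. Both calls belong to the same origin upstream of *ORC1*, which is on the WT list alone. The median log2 fold over the windows was −0.21 for *ORC1Δ*, −0.06 for *ORC2Δ*, and 0.17 for *ORC5Δ* cells, against −0.01, −0.04, and −0.003 over all origins. The 2 *ORC1* origins were counted because of the WT list alone, which favours low folds. The 2 *ORC5* origins were counted because of the *ORC5Δ* list alone, which favours high folds. These medians are therefore no test of a change.

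**Figure D2:**
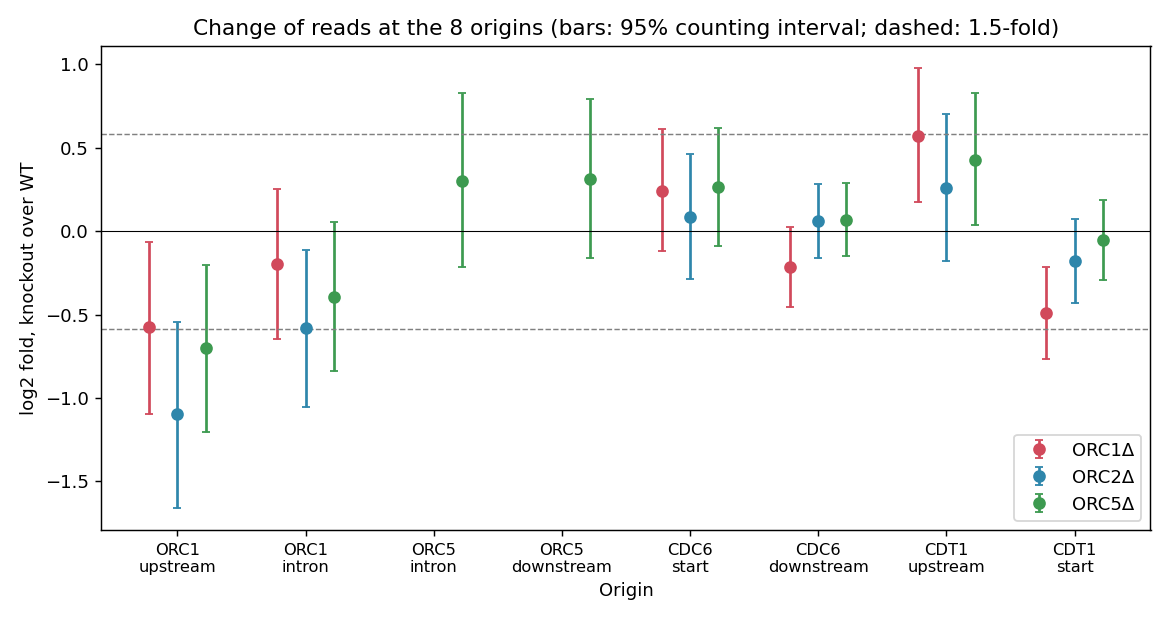
Log2 fold of reads, knockout over WT, at the 8 origins in the licensing gene windows. Points are the values in the 3 tables, bars their 95% counting intervals, and dashed lines the 1.5-fold limit. The origin upstream of *ORC1* lies lowest in *ORC2Δ* and *ORC5Δ* cells, and the *ORC5* origins have a value in the *ORC5Δ* table alone.

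*ORC1* encodes the largest ORC subunit, an ATPase that binds chromatin through its BAH domain and is degraded in S phase. Its window on chromosome 1 held 2 origins, both on the WT list and on no knockout list. The upstream origin, chr1:52408781-52409222, ends 4.36 kb before the *ORC1* start on that gene's strand, within introns of the neighbouring genes *PRPF38A* and *TUT4*. A stretch of it is printed on the *ORC1* strand, chr1:52408882-52409121, with runs of 3 or more G or C in capitals, since it is the one window origin past the limit and is poor in such runs.
ORC1 upstream origin: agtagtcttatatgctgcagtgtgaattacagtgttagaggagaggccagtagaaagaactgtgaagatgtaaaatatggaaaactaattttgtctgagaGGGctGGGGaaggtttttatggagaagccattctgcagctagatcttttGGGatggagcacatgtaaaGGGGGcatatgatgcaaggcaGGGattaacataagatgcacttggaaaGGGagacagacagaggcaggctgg
The whole origin has a GC content of 43.0%, below which only 6.35% of WT origins lie. It holds 12 runs of G or C, or 27.1 per kb, and 10.6% of WT origins hold fewer per kb.

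The upstream origin of *ORC1* had 80 WT reads, which are 12.5, 12.0, and 11.6 RPM in the *ORC1Δ*, *ORC2Δ*, and *ORC5Δ* tables. It had 56 reads (8.37 RPM) for *ORC1Δ*, 44 reads (5.64 RPM) for *ORC2Δ*, and 61 reads (7.16 RPM) for *ORC5Δ* cells. All 3 knockout lines thus had fewer scaled reads than WT. The log2 fold was −1.10 (−1.66 to −0.55) for *ORC2Δ* and −0.70 (−1.21 to −0.20) for *ORC5Δ* cells, both down by the rule. In *ORC1Δ* cells it was −0.57 (−1.09 to −0.06), short of the limit, but −0.82 after a correction for GC content by a running median. Only 0.335% of all origins in the *ORC2Δ* table and 0.247% in the *ORC5Δ* table had a lower log2 fold. This origin was counted because of the WT list alone, which favours low folds and intervals. Its ranks among all origins are therefore no test of a change. The 2466 origins found on the WT list alone had a median log2 fold of −0.27 beside *ORC1Δ*, −0.40 beside *ORC2Δ*, and −0.27 beside *ORC5Δ*, and 14.6%, 25.9%, and 7.42% of them were down. The median of the other origins within 2.5 Mb of *ORC1* was 0.03, −0.09, and −0.03 in the same order, so the low values were not shared by the surroundings.

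The second WT origin of *ORC1*, chr1:52396715-52397132, lies in an intron, with its midpoint 7.50 kb after the start. It had 89 WT reads, 81 reads for *ORC1Δ*, 70 for *ORC2Δ*, and 84 for *ORC5Δ* cells. Its log2 folds were −0.20 (−0.65 to 0.25), −0.58 (−1.05 to −0.11), and −0.39 (−0.84 to 0.05), none of them past the limit. The value in *ORC2Δ* cells was just short of it, and past it after GC correction, at −0.60. With 81 reads in *ORC1Δ* cells, the DNA at this intron was present in the line in which *ORC1* was targeted. The genome positions of the edits are not given in the sources used here, and no origin lies in *ORC2*, so the knockouts themselves were not checked from these files.

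In the *ORC1Δ*, *ORC2Δ*, and *ORC5Δ* lists, the origin nearest to the *ORC1* body was 128, 128, and 148 kb away. The first and second of these lay in an intron of *ZFYVE9*, and the one of *ORC5Δ* cells at the 5′UTR of *TUT4*. Farther out, within 500 kb of the gene, the counts ran the other way in *ORC1Δ* cells, with 15 origins on the list against 6 in WT. A gain as high as 9 origins was seen around 4.63% of protein-coding genes in that line. *ORC2Δ* cells had 9 and *ORC5Δ* cells 8 origins in the same span, gains matched or passed around 60.7% and 78.6% of genes.

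*ORC2* encodes a core subunit that forms the stable ORC heart together with *ORC3*, *ORC4*, and *ORC5*. Its body on chromosome 2, 54.7 kb long, had no origin in the window on any list. The nearest WT origin lay 223 kb away in the pseudogene *AOX3P*. The 3 knockout lists shared a nearer origin that the WT list lacks, 78.4 to 78.5 kb downstream, at or beside the snRNA gene record *RNU6-31P*. Reads were nevertheless present there in WT, with 77, 64, and 65 WT reads in the 3 tables against 93 for *ORC1Δ*, 75 for *ORC2Δ*, and 83 for *ORC5Δ* cells. The log2 folds were 0.21 (−0.24 to 0.67), −0.005 (−0.51 to 0.50), and 0.04 (−0.44 to 0.53), so a difference between the lines was not detectable at this depth although the lists differ.

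*ORC3*, another core subunit, lies on chromosome 6 in a span with few origins. Within 500 kb of it the WT list had 2 origins, *ORC1Δ* had 2, *ORC2Δ* had 6, and *ORC5Δ* cells had 8. The gains in *ORC2Δ* and *ORC5Δ* cells were matched or passed around 52.7% and 49.4% of protein-coding genes, so they are common ones. The nearest one lay 413 kb away in WT, 268 kb for *ORC1Δ*, and 33.5 kb in *ORC2Δ* and *ORC5Δ* cells, where it covers part of *AKIRIN2*. That origin had 118 WT and 174 *ORC2Δ* reads, a log2 fold of 0.33 (−0.02 to 0.68). In the *ORC5Δ* table a shorter interval had 73 WT and 105 *ORC5Δ* reads, or 0.22 (−0.23 to 0.67). Neither value was past the limit.

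*ORC4*, an ATPase-fold subunit of the ORC core, had the smallest number of WT origins nearby of the 9 genes, 1 within 500 kb. That origin, 483 kb away in an intron of *MBD5*, was on all 4 lists and had log2 folds of 0.06 (−0.29 to 0.42) for *ORC2Δ* and −0.07 (−0.43 to 0.29) for *ORC5Δ* cells. On the *ORC1Δ* list, 6 origins lay within 500 kb, 5 of them on that list alone. The nearest was 271 kb downstream, with 48 WT and 75 *ORC1Δ* reads and a log2 fold of 0.58 (0.04 to 1.14), just inside the limit. It passed the limit with median-of-ratios or TMM factors, both at 0.60, and with reads in shared origins, at 0.63, but was 0.33 after GC correction. The 6 table origins around *ORC4* in *ORC1Δ* cells ranged from 0.30 to 0.58, with a median of 0.46. Being on the *ORC1Δ* list alone favours high folds, and such origins had a median of 0.35 over the genome, with 20.3% of them up.

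*ORC6* encodes the smallest subunit, which is the least tightly held by the complex. No origin lay within 10 kb of it, and the nearest WT origin was 209 kb away in an intron of *GPT2*. Each knockout list had its own nearest origin, 59.5 kb away for *ORC1Δ*, 62.8 kb in *ORC2Δ* (in *MYLK3*), and 72.9 kb in *ORC5Δ* cells (in *SHCBP1*). Their reads were 46 in WT and 65 for *ORC1Δ*, 109 in WT and 135 for *ORC2Δ*, and 69 in WT and 97 for *ORC5Δ* cells. The log2 folds of 0.44 (−0.13 to 1.02), 0.07 (−0.30 to 0.45), and 0.18 (−0.28 to 0.65) all had intervals that include 0.

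**Figure D3:**
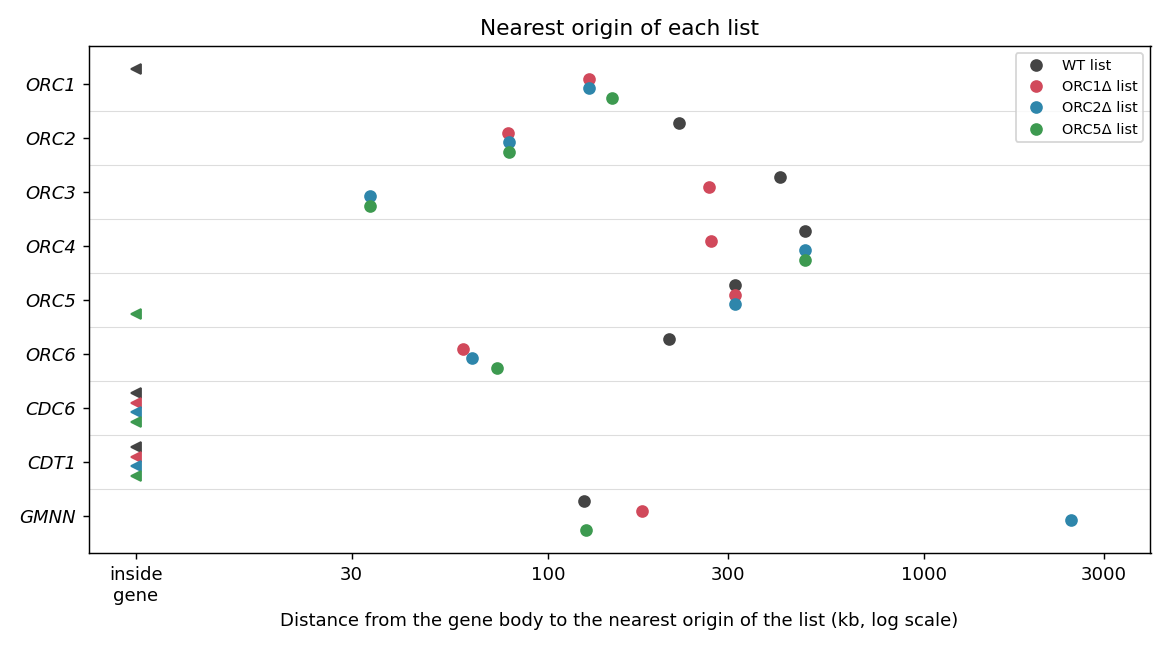
Distance from the body of each licensing gene to the nearest origin on each list, in kb on a log scale, with a triangle at the left for an origin inside the gene. *CDC6* and *CDT1* have an origin inside the gene on all 4 lists, while *GMNN* in *ORC2Δ* cells has the longest distance, 2460 kb.

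*ORC5* encodes an ATPase-fold subunit of the ORC core. Its window on chromosome 7 held 2 origins, both on the *ORC5Δ* list alone, the line in which this gene was inactivated. One, chr7:104128251-104128690, lies in an intron near the 3′ end, 79.6 kb after the start. The other, chr7:104118860-104119286, is intergenic, 89.0 kb after the start and past the gene end.

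Of the 32-base words in the *ORC5* intron origin, 36.7% are found once in hg38, and 67.2% in the downstream one. In a sample of 604 WT origins, the median was 100% and 8.11% of origins were below 50%. How reads that match several places were counted is not given in the sources used here, and its part in these 2 values was not tested. The intron origin had 53 WT and 81 *ORC5Δ* reads (7.71 and 9.50 RPM), and the downstream one had 63 and 97 (9.16 and 11.4 RPM). The log2 folds of 0.30 (−0.21 to 0.83) and 0.31 (−0.16 to 0.79) both had intervals that include 0. Being on the *ORC5Δ* list alone favours high folds. The 6451 origins on that list alone had a median of 0.10, and 2.43% of them were up.

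On the WT, *ORC1Δ*, and *ORC2Δ* lists, the nearest origin to *ORC5* was the same one in an intron of *LHFPL3*, 314 kb away. Within 500 kb of *ORC5*, the WT list had 4 origins, *ORC1Δ* had 2, *ORC2Δ* had 5, and *ORC5Δ* cells had 14, of which 10 were on the *ORC5Δ* list alone. A gain of 10 or more was seen around 27.0% of protein-coding genes in *ORC5Δ* cells, so the gain is a common one in that line. The 14 table origins ranged from −0.37 to 0.40 in log2 fold, and none was past the limit.

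*CDC6* encodes the AAA+ protein that joins ORC on DNA and closes the ring for helicase loading. At its start on chromosome 17 lies an origin of all 4 lists, chr17:40287769-40288387 after joining. It covers the start on the knockout lists, and on the WT list it begins 37 bp past it. A stretch in an intron of *CDC6*, chr17:40288133-40288372, is printed on the gene strand with runs of 3 or more G or C in capitals, as one of the 2 origins found at a licensing gene start.
CDC6 start origin: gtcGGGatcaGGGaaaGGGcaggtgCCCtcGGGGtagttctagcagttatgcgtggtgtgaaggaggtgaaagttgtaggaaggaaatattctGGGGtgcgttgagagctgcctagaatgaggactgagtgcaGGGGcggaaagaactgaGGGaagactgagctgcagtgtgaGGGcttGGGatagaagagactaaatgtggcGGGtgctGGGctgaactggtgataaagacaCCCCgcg
It holds 11 runs of G and 2 of C, and the whole origin has a GC skew of 0.425, the excess of G over C as a share of both. The median absolute skew of WT origins is 0.341, and 74.9% of them lie below this origin. Its GC content is 58.5%, against a median of 54.8%.

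The *CDC6* start origin had 115, 109, and 115 WT reads in the 3 tables (17.9, 16.4, and 16.7 RPM). The knockout reads were 142 in *ORC1Δ* (21.2 RPM), 136 in *ORC2Δ* (17.4 RPM), and 171 in *ORC5Δ* cells (20.1 RPM). The log2 folds were 0.24 (−0.12 to 0.61), 0.09 (−0.29 to 0.46), and 0.26 (−0.09 to 0.62). All were above 0, and all intervals include 0. The second origin in the *CDC6* window lies in an intron of *RARA*, which encodes a retinoic acid receptor, 26.3 kb after the *CDC6* start, and it crosses the edge of the window. It had the most reads of the 8 origins, 306, 307, and 310 in WT against 275 for *ORC1Δ*, 376 for *ORC2Δ*, and 403 for *ORC5Δ* cells. Its log2 folds of −0.21 (−0.45 to 0.03), 0.06 (−0.16 to 0.28), and 0.07 (−0.15 to 0.29) stayed well within the limit. Just outside the window, the next WT origin lay 14.0 kb from the *CDC6* body. Within 10 to 50 kb of the body there were 6 origins on the WT list, 6 for *ORC1Δ*, 9 for *ORC2Δ*, and 7 for *ORC5Δ* cells, and their log2 folds ranged from −0.35 to 0.16 over the 3 tables.

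*CDT1* encodes the chaperone that brings MCM2–7 to ORC and CDC6. Its window on chromosome 16 lies in the most origin-dense surroundings of the 9 genes, with 76 WT origins within 500 kb. The median over all protein-coding genes is 14, and *ORC1* to *ORC6* and *GMNN* had 1 to 13. Both *CDT1* origins were on all 4 lists. The start origin, chr16:88803680-88804475, covers the 5′UTR and a coding exon, and on the *ORC1Δ* list it leaves 95 bp to the gene start. A stretch of it, chr16:88803958-88804197, is printed on the gene strand with runs of 3 or more G or C in capitals, for comparison with *CDC6* and *ORC1*.
CDT1 start origin: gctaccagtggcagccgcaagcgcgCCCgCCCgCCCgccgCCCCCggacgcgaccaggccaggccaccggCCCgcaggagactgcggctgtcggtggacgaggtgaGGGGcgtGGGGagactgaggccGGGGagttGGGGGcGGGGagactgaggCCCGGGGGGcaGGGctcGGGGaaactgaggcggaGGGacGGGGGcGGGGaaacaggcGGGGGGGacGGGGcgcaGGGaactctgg
This stretch has 20 runs, against 13 in the *CDC6* and 6 in the *ORC1* stretch of the same 240 bases. At 73.4%, the GC content of the whole origin is higher than that of 98.1% of WT origins, while its GC skew is −0.003.

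The start origin of *CDT1* had 257 WT and 191 *ORC1Δ* reads, which are 40.1 and 28.5 RPM. Beside *ORC2Δ* it had 260 and 270 reads (39.2 and 34.6 RPM), and beside *ORC5Δ* it had 266 and 318 (38.7 and 37.3 RPM). The scaled reads were lower in each knockout line, with log2 folds of −0.49 (−0.77 to −0.21), −0.18 (−0.43 to 0.07), and −0.05 (−0.29 to 0.19). None was past the limit, and the interval of the *ORC1Δ* value alone excludes 0. After the GC correction, the *ORC1Δ* value was −0.10.

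The upstream origin of *CDT1*, chr16:88798132-88798631, is intergenic and ends 5157 bp before the start. Its GC skew is 0.600, and 94.4% of WT origins have a lower absolute skew. No run of 4 ATCC repeats in a row on either strand was found in any of the 8 origins.

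The *CDT1* upstream origin had 87 WT and 135 *ORC1Δ* reads (13.6 and 20.2 RPM), 76 WT and 107 *ORC2Δ* reads (11.4 and 13.7 RPM), and 87 WT and 145 *ORC5Δ* reads (12.6 and 17.0 RPM). All knockout lines had more scaled reads than WT. The log2 fold was 0.57 (0.17 to 0.98) for *ORC1Δ*, 0.26 (−0.18 to 0.70) for *ORC2Δ*, and 0.43 (0.03 to 0.83) for *ORC5Δ* cells. The value in *ORC1Δ* cells was just short of the limit and passed it with median-of-ratios size factors, at 0.59. After correction for GC content it was 0.40. Of its 32-base words, 75.7% are found once in hg38. The 2 origins of *CDT1* had log2 folds of opposite sign in all 3 knockout lines, though the intervals exclude 0 on both sides in *ORC1Δ* cells alone. After GC correction both were above 0 in *ORC5Δ* cells, at 0.42 upstream and 0.02 at the start.

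**Figure D4:**
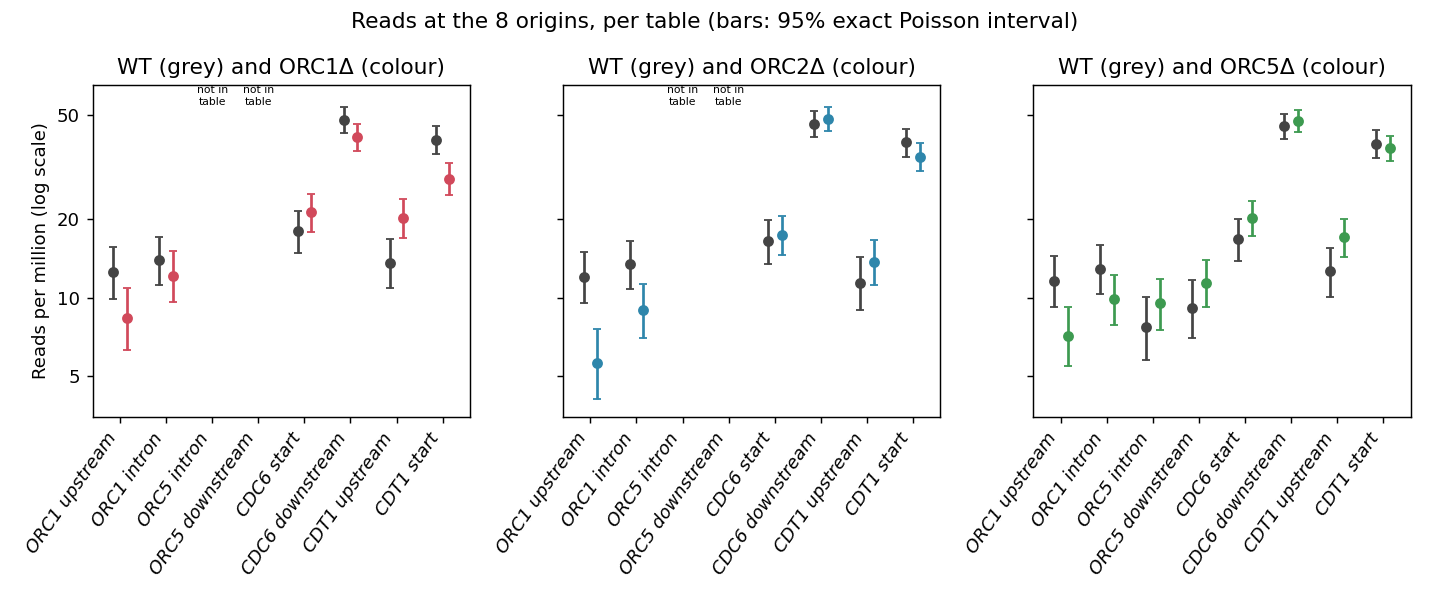
RPM (log scale) at the 8 origins in the licensing gene windows, with WT in grey and the knockout line of the table in colour, and 95% exact Poisson intervals as bars. The *CDC6* downstream and *CDT1* start origins have the most reads, and the *ORC5* origins the fewest WT reads.

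*GMNN* encodes geminin, which binds CDT1 and blocks licensing from S phase to mitosis. Its window on chromosome 6 was empty on all lists. The nearest WT origin, chr6:24910846-24911245, lies 125 kb downstream in a UTR of *RIPOR2*, has a GC content of 71.8%, and is on the WT list alone. It had 99 WT reads in each table and 65 reads for *ORC1Δ*, 37 for *ORC2Δ*, and 116 for *ORC5Δ* cells. *ORC2Δ* cells had the fewest by far, at 4.74 RPM against 14.9 RPM in WT. The log2 fold was −0.67 (−1.14 to −0.20) for *ORC1Δ* and −1.65 (−2.24 to −1.10) for *ORC2Δ* cells, both down by the rule, and −0.08 (−0.48 to 0.32) in *ORC5Δ* cells. The value in *ORC1Δ* cells was −0.31, short of the limit, after correction for GC content. Only 0.034% of origins in the *ORC2Δ* table had a lower log2 fold. This origin too was counted because of the WT list alone, which favours low folds, so the rank is no test of a change. Among origins on the WT list alone, the median was −0.27 beside *ORC1Δ* and −0.40 beside *ORC2Δ*, with 14.6% and 25.9% down.

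The surroundings of *GMNN* had low values in *ORC2Δ* cells as well. On the *ORC2Δ* list the nearest origin lay 2460 kb away, and none lay within 500 kb, where WT had 6, *ORC1Δ* had 6, and *ORC5Δ* cells had 12. In this line, such a loss or a larger one was seen around 1.48% of protein-coding genes. All 6 origins of the *ORC2Δ* table within 500 kb were down, beside 3.58% of all its origins, from −1.65 to −0.76, with a median of −1.18. None of the 6 is on the *ORC2Δ* list, which favours low folds. The *ORC1Δ* table had 8 origins within 500 kb with a median of 0.08, and the *ORC5Δ* table had 14 with a median of 0.09.

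*GMNN* thus lies in a span of 7.04 Mb of chromosome 6, from 20.2 to 27.2 Mb, without any origin on the *ORC2Δ* list, where the WT list had 30, *ORC1Δ* had 36, and *ORC5Δ* cells had 49. The *ORC2Δ* table has 30 origins in the span, of which 28 were down, with values from −1.66 to −0.35 and a median of −0.91. In the *ORC1Δ* table the median there was 0.15 and in the *ORC5Δ* table −0.04. From the start of the chromosome to the far edge of the span, the 248 origins of the *ORC2Δ* table had a median of −0.94, and the 1691 after it had 0.03. The edge was placed after the values were seen, and the number of DNA copies in the lines was not measured in these files, so its part in the values around *GMNN* was not tested. The median within 2.5 Mb of the gene was −0.91, and the nearest origin was at −0.85 once the median within 2.5 Mb of the origin itself was subtracted.

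**Figure D5:**
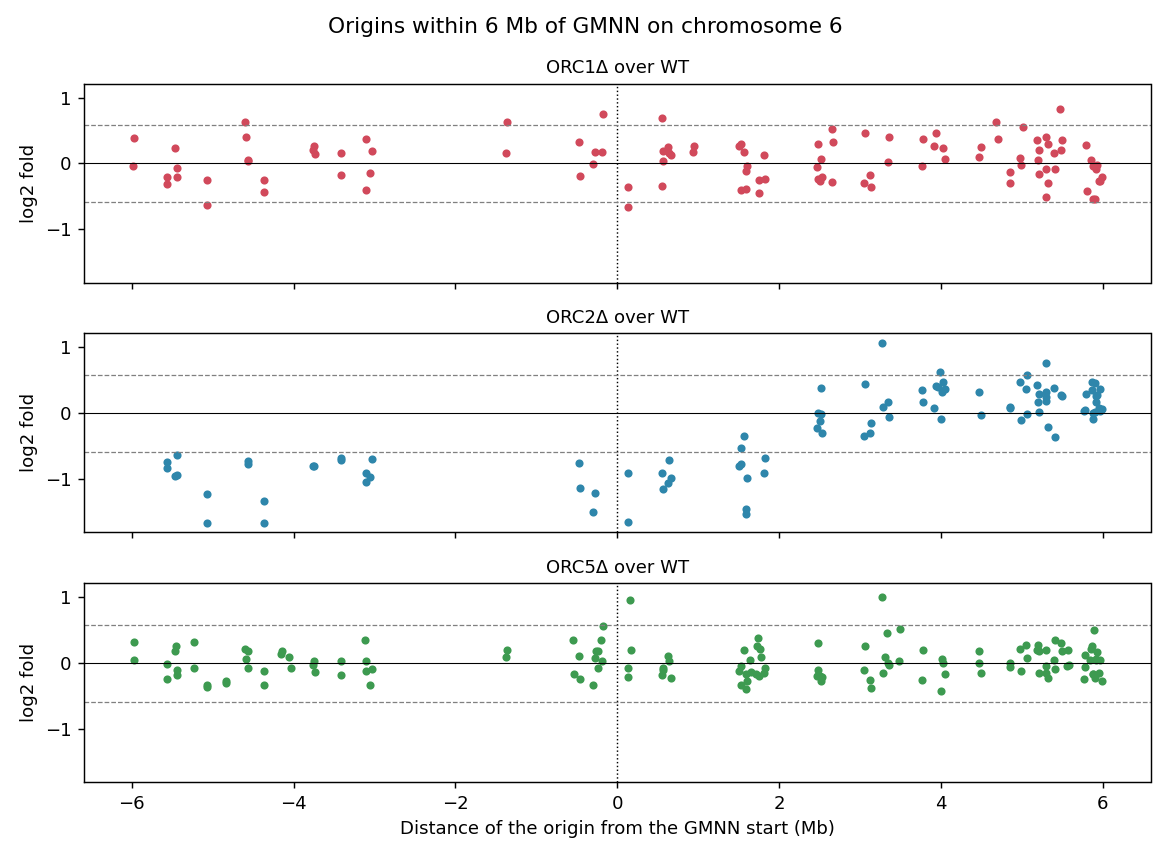
Log2 fold, knockout over WT, of the origins within 6 Mb of the *GMNN* start on chromosome 6, against their distance in Mb. Each point is an origin of the table, the dotted line marks *GMNN*, and dashed lines mark the 1.5-fold limit. In *ORC2Δ* cells the points lie near −0.91 on both sides of *GMNN* and near 0 from about 2.5 Mb after it, with no such step in the other lines.

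No other licensing gene had low or high surroundings of this size. For the other 8 genes, the median log2 fold of origins within 2.5 Mb was −0.19 to 0.18 for *ORC1Δ*, −0.09 to 0.05 for *ORC2Δ*, and −0.05 to 0.08 for *ORC5Δ* cells. The lowest of these was around *CDC6* and the highest around *ORC4*, both in *ORC1Δ* cells.

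Promoters of the licensing genes, taken from RefSeq on GRCh38.p14 from 250 bases before to 50 after the start, were found for all 9 genes as 11 sequences, since *ORC4* and *GMNN* have 2 starts each. Their GC content ranged from 55.3% at *ORC1* to 74.3% at *CDT1*. The 2 genes with an origin at the start did not stand together. *CDC6* had 60.7%, between the 2 *GMNN* values of 60.0% and 69.7% and below *ORC5* at 66.7%. Among all promoters, the share with a WT origin within 1 kb was 3.61% below 50% GC, 13.3% from 50% to 60%, 20.5% from 60% to 70%, and 26.7% from 70% upward.

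The pathway downstream of licensing was described with 30 further genes, 6 for the MCM2–7 helicase, 13 for origin firing, and 11 for the control of licensing. All but 9 of these 30 genes had an origin in the window on some list, beside 65.2% of all protein-coding genes. In *ORC1Δ* cells, 2 of 47 origins in their windows were up and 3 down, beside 7.04% and 3.95% of all origins. *ORC2Δ* cells had 0 up and 3 down of 40, beside 4.66% and 3.58%, and *ORC5Δ* cells had 0 of 50 in either direction, beside 2.08% and 0.68%. The median log2 fold was 0.02, −0.12, and −0.004, in the same order of lines. The genes of the helicase had no origin past the limit in any line.

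*CUL4A*, which encodes the cullin of the ligase that marks CDT1 for destruction, was the one pathway gene with an origin past the limit in the same direction in more than 1 line. The origin at its 5′UTR and a coding exon, chr13:113209309-113209688, is on the WT list alone. It had 80 WT reads, 49 reads for *ORC1Δ*, and 57 for *ORC2Δ* cells, with log2 folds of −0.77 (−1.31 to −0.24) and −0.72 (−1.24 to −0.21). In *ORC5Δ* cells it had 80 reads and a log2 fold of −0.31 (−0.77 to 0.16), within the limit. Being on the WT list alone favours low folds, and 14.6%, 25.9%, and 7.42% of such origins were down beside *ORC1Δ*, *ORC2Δ*, and *ORC5Δ*. After correction for GC content, at 79.2% for this origin, the value in *ORC1Δ* cells was −0.31. In *ORC2Δ* cells all 3 origins in its window were down, from −0.96 to −0.72, and the median within 2.5 Mb of the gene was −0.69. The other origins past the limit were in *ORC1Δ* cells, down in the windows of *CDC45* (−0.81) and *TICRR* (−0.69) and up in those of *DDB1* (0.62) and *CDK2* (0.64). After GC correction none of these 4 was past the limit, at −0.53, −0.43, 0.46, and 0.46 in the same order. *CDC45* and *TICRR* act in helicase activation, *DDB1* is the adaptor of the CUL4 ligase, and *CDK2* is an S-phase kinase.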

How the data were processed

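The authors aligned SNS-seq reads to hg38 (GRCh38) with Bowtie after Trim Galore 0.6.4, called peaks with MACS2 in each of 2 replicates, and kept peaks found in both, per the labels and the study's methods. The deposited lists hold start and end positions without a height, and the deposited tables hold whole-number counts of reads, not normalized, in the joined origins of WT and 1 knockout line, with replicates merged. The counting tool and the treatment of duplicate and multi-matching reads are not given in the sources used here. Every count column belongs to 1 line.

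Counts were scaled to all reads of the line in the table (6416892 to 6878409 in WT, 6691088 to 8523971 in the knockout lines). Origins on chromosomes 1 to 22, X, and Y were used, and other contigs, which hold about 1% of reads, count toward totals. Log2 folds had no pseudocount or filter, and origins were called at 1.5-fold. Intervals are 95% exact Clopper-Pearson intervals on the share of reads. Where duplicates remain, single reads do not stand for single molecules. Sequence came from hg38, genes from GENCODE release 44, and promoters from RefSeq. The sequences of the *ORC5* origins and of the upstream *CDT1* origin are not reported here.

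The members and lists were chosen with earlier results of these data known. The origins named are those past 1.5-fold in any line, in the body of *ORC1*, *ORC2*, or *ORC5*, within 1 kb of a start, with most WT reads in a window, or nearest where a window has none, and of the pathway the genes past 1.5-fold in the same direction in 2 or more lines. The remaining window origins, the pathway genes past the limit, and *SKP2* were named after their values were seen. Alternatives covered the scaling (TMM factors of edgeR, size factors by the median of ratios, or reads in shared origins), a GC correction by a running median over 1001 origins, subtraction of the median within 2.5 Mb, filters of 50 and 100 reads, a pseudocount of 0.5, a looser limit and one of 2-fold, windows, widths, and start distances. Folds, intervals, and calls were tested on simulated data. R 4.3.3 with edgeR 4.0.16 and Python 3.11.15 were used, the latter with pandas 2.3.3, pysam 0.24.0, matplotlib 3.10.9, scipy 1.17.1, and numpy 2.4.6.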

Additional observations from a re-analysis of the deposited data

How the results depend on the processing

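No paired analysis was possible because the tables merge the replicates of a line, and for the same reason no replicate could be left out. All 210 recomputed log2 folds of single origins used the same reads. Of these, 208 moved by less than the distance from the middle of their counting interval to its end. None of the called ones changed sign. The 2 that moved further were the *CDT1* start origin in *ORC1Δ* cells and the origin nearest *GMNN* in *ORC2Δ* cells. The first was at −0.10 after correction for GC content, the second at −0.85 after subtraction of the local median. Smaller moves also changed calls, as given beside the origins of *ORC1*, *CDT1*, *ORC4*, and *GMNN*. The number of origins down in the windows in *ORC1Δ* cells was 0 and became 1 after GC correction, after subtraction of the local median, or with 50 kb either side, and 2 at the looser limit tried. In *ORC2Δ* cells it was 1 and became 2 after GC correction or at the looser limit and 0 in gene bodies alone. In *ORC5Δ* cells it was 1 and became 2 at the looser limit and 0 at 2-fold or in gene bodies alone. The number up, 0 in each line, became 1 in *ORC1Δ* cells with median-of-ratios or TMM factors, with reads in shared origins, after subtraction of the local median, or at the looser limit, and 1 in *ORC5Δ* cells at the looser limit. The origin up in *ORC1Δ* cells was the one upstream of *CDT1*.

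The median log2 fold over the windows in *ORC1Δ* cells, −0.21, was −0.34 without *CDC6* and 0.015 without *ORC1*. In *ORC2Δ* cells, −0.06 became −0.38 without *CDC6*, −0.26 without *CDT1*, and 0.072 without *ORC1*. In *ORC5Δ* cells, 0.17 became 0.0086 without *ORC5* and −0.044 with 50 kb either side. These medians of 6 to 8 origins therefore depend on single genes. The number of origins on the lists in gene bodies alone was 3 in WT, 2 for *ORC1Δ*, 2 for *ORC2Δ*, and 3 in *ORC5Δ* cells. With 5 kb either side it was 4 in WT, 2 for *ORC1Δ*, 2 for *ORC2Δ*, and 3 in *ORC5Δ* cells. With 50 kb it was 17 in WT, 14 for *ORC1Δ*, 21 for *ORC2Δ*, and 20 in *ORC5Δ* cells. Without the narrower origins, those below the median width of their list, there were 2 in WT and 3 each for *ORC1Δ*, *ORC2Δ*, and *ORC5Δ* cells. By this setting WT no longer had more than *ORC1Δ* and *ORC2Δ*. The number of genes with an origin at the start stayed within 1.5 times its value at 500 bp, at 2 kb, and with all basic transcript starts. With 44 to 403 reads per origin and line in the windows, the counting interval of a log2 fold was 0.44 to 1.11 wide from end to end, and 7 of 20 intervals exclude 0.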

Other observations

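Within 500 kb of *ORC6*, the highest log2 fold was 2.60 among 16 origins for *ORC1Δ*, 2.47 among 18 for *ORC2Δ*, and 0.18 among 15 for *ORC5Δ* cells. These are single extreme origins. The medians there were 0.24, 0.07, and −0.06, and 1, 2, and 0 origins were up, beside 7.04%, 4.66%, and 2.08% of all origins. Within 500 kb of *CDT1*, 9 of 85 origins were up and 3 down in *ORC1Δ* cells, beside 7.04% and 3.95% of all origins. For *ORC2Δ* 7 of 90 were up, beside 4.66%, and in *ORC5Δ* cells 3 of 93, beside 2.08%, with none down in either line. The highest log2 folds were 2.26, 2.72, and 0.87, while no origin in the *CDT1* window was up. The list of *ORC5Δ* cells had 93 origins within 500 kb of *CDT1* against 76 in WT, a gain matched or passed around 4.63% of protein-coding genes in that line. *SKP2*, which encodes a ubiquitin ligase subunit that acts on CDT1, had no origin in its window on any list. It was picked from the 30 pathway genes after the values were seen. The *ORC1Δ* list had 10 origins within 500 kb of it and the WT list had 0. The median log2 fold of the 69 *ORC1Δ* table origins within 2.5 Mb was 0.50, against −0.01 over all origins of that table. In *ORC2Δ* and *ORC5Δ* cells the median within 2.5 Mb was 0.008 and −0.03. The value thus belongs to a wide region, and the part of DNA copy number in it was not tested. None of these differences could be tested with merged replicates.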
